A study of Rattus norvegicus with 4 samples.

Results

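The lipid droplet of the fat cell was described here through 9 genes, which code for proteins that coat the droplet or break down the triglyceride inside it: Plin1, Plin2, Plin4, Cidea, G0s2, Lipe, Pnpla2, Abhd5 and Mgll. The genes were chosen by name, with earlier results of these data known. Every probe set that the platform annotation pairs with 1 of these symbols was taken, and the probe set with the highest mean signal stands for the gene. Of the 9 genes, 8 had such a probe set, and together they had 12 of the 15866 probe sets of the array. Abhd5, the co-activator of the triglyceride lipase, had none, so its level was not analysed here. The tissue was visceral fat of male Wistar rats, 130 days of age, and its total RNA was hybridised to 4 single-colour arrays, 2 titled Obese and 2 titled Control. The labels do not say how obesity arose, whether by diet, genotype or another treatment, nor whether an array holds 1 animal or a pool. A p-value here reflects no more than how much these samples scatter, and that scatter may be technical. Signals are the authors' deposited intensities on a linear scale, the depth behind an intensity is unknown, and the number of arrays limits the precision of every value.

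A fat cell keeps its energy as triglyceride in a droplet bounded by a phospholipid layer. Perilipins cover that layer and keep lipases away from the lipid in the fed state. When catecholamines raise cAMP, protein kinase A phosphorylates perilipin 1, which then releases the co-activator ABHD5. ABHD5 activates adipose triglyceride lipase (ATGL, gene Pnpla2), which removes the first fatty acid. Hormone-sensitive lipase (gene Lipe) removes the second, and monoglyceride lipase (gene Mgll) frees the last together with glycerol. G0S2 binds ATGL and inhibits it, and CIDEA promotes the transfer of lipid between touching droplets.

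The tissue carried the signals of white fat. Of 8 adipocyte markers, 6 had a tested probe set, and their summed signal was 10249 and 12491 on obese replicates 1 and 2 and 10412 and 10402 on control replicates 1 and 2. Fabp4, the fatty acid binding protein of adipocytes, lay between 2853 and 3680 on all arrays. The 4 arrays shared a trimmed mean, so the deposited values appear scaled already. Log2 signals of 12929 tested probe sets correlated with r = 0.966 between the obese arrays and r = 0.976 between the control arrays, and across groups with 0.961 to 0.969, so that control replicate 1 was as like obese replicate 1 as the obese arrays were like each other. The obese samples differed from each other in markers of other cells: the 4 tested markers of mesothelium, the lining of the abdominal cavity, summed to 1442 on obese replicate 1 and 348.5 on obese replicate 2, against 745.3 and 884.7 on control replicates 1 and 2. The 4 smooth muscle markers summed to 3223 and 1304 on obese replicates 1 and 2, against 1405 and 1450 on control replicates 1 and 2.

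The genes separated into a group that was higher in obese tissue, a pair of lipases with no difference larger than the spread, and Plin2, whose mean was lower while its groups overlapped. G0s2, Cidea, Plin4, Mgll and Plin1 were higher on both obese arrays than on both control arrays, 5 of 8 measured genes, where 15.6% of all tested probe sets were. None of the 8 lay lower on both obese arrays, where 24.4% of all tested probe sets did. The median log2 difference, obese minus control, was 0.38 over the 8 genes and -0.04 over all tested probe sets. In limma, 0 of the 8 genes and 0% of the 12929 tested probe sets passed an adjusted p of 0.05. An unadjusted p under 0.05 was reached by 4 of the 8 genes, all higher in obese tissue, and by 8.3% of all tested probe sets (3.07% in that direction). The number was 5 without obese replicate 1, 2 without obese replicate 2, 1 without control replicate 1 and 0 without control replicate 2. No difference below therefore passed the test over all probe sets in this fit. Since the genes were chosen with earlier results known, the counts and shares above are descriptions and no test of the group.

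**Figure D1:**
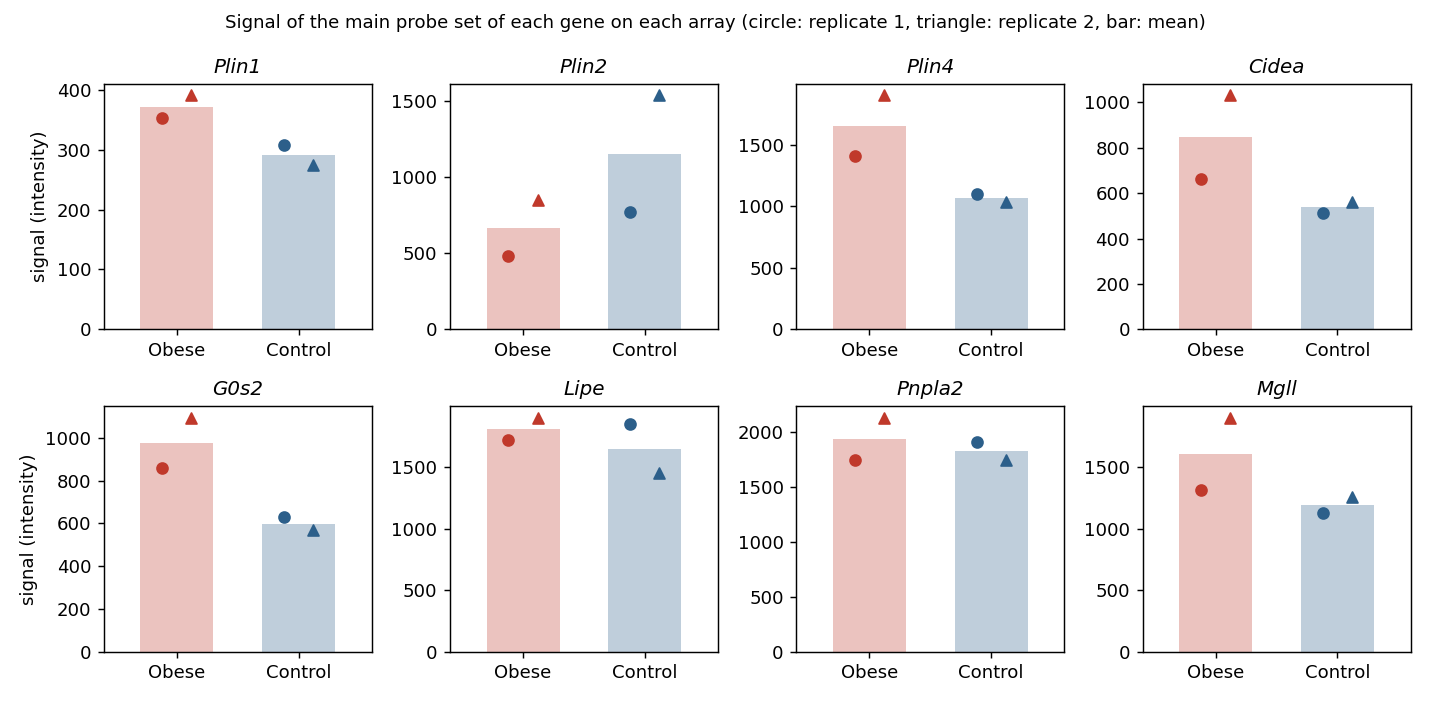
Signal (intensity, linear scale) of the main probe set of the 8 measured genes on obese and control arrays, with circles for replicate 1, triangles for replicate 2 and bars for the mean of the 2 arrays. For Plin1, Plin4, Cidea, G0s2 and Mgll both obese points lie above both control points, and for Plin2 the highest point, 1540, is control replicate 2.

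The DNA just upstream of the annotated starts is shown for the 4 genes with the smallest p-values in the higher direction and for Plin2, the 1 gene that was lower, so that the promoters of genes that differed in direction can be set side by side. The 250 bases before each start were taken from RefSeq on the assembly GRCr8, and 7 of the 8 measured genes were matched by symbol. Capitals mark matches, on either strand, to the CCAAT box (CCAAT), the GC box (GGGCGG) and the E-box (CACGTG). The sequences read 5′ to 3′ on the strand of the gene.
Plin1, chr1:143086149-143086398, minus strand: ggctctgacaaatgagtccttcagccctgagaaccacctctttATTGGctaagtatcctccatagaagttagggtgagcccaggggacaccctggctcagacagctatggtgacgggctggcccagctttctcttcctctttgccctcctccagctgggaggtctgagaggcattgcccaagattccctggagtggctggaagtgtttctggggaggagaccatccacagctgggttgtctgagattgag
Plin4, chr9:1025250-1025499, minus strand: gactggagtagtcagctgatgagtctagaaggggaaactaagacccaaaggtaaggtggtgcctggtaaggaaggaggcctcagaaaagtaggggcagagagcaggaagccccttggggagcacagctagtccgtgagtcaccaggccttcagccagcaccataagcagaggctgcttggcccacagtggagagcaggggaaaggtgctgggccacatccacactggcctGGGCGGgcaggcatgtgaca
Cidea, chr18:63164567-63164816, plus strand: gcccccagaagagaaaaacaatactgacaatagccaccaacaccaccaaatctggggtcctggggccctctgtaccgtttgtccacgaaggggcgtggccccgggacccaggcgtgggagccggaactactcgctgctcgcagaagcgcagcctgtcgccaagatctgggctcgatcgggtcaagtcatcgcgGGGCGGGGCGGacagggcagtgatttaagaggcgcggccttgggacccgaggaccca
G0s2, chr13:107335949-107336198, minus strand: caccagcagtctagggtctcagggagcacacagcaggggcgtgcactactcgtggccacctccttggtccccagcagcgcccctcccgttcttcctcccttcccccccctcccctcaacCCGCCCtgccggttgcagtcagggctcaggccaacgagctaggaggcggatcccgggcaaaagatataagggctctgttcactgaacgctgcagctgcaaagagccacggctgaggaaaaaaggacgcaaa
Plin2, chr5:106229019-106229268, minus strand: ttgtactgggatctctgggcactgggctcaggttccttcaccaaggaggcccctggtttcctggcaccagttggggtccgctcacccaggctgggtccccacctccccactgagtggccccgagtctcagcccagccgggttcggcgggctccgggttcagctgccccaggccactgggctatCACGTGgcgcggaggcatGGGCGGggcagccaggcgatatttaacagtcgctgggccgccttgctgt

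The GC box was present upstream of 6 of the 7 genes, all but Plin1, and upstream of 58.8% of the 7496 tested genes with a promoter of the same length. Its 2 copies upstream of Cidea overlap by 1 base. Plin1 held a CCAAT box, as did Mgll among the promoters not printed, and 35.5% of all tested genes. The E-box stood upstream of Plin2 and Mgll, and of 8.14% of all tested genes. The DR1 element, the direct repeat bound by the fat cell regulator PPARG, was found in none of the 7 windows and in 0.0133% of all tested genes, and the cAMP response element (TGACGTCA) in none of the 7 and in 2.68% of all. A looser DR1, with any base allowed at 1 place in each repeat, was also found in none of the 7, and in 0.267% of all. These counts describe the letters in the windows and not binding. Of the 4 higher genes shown, 3 shared the GC box with Plin2, and none of the 4 had its E-box. Mgll, not shown but also higher on both obese arrays, had an E-box, so this motif did not divide the genes by direction.

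Perilipin 1, the coat protein found almost only in adipocytes and steroid-making cells, had a small and even difference. Plin1 (probe set 1369449_at) had signals of 353.0 and 391.3 on obese replicates 1 and 2, against 308.7 and 275.3 on control replicates 1 and 2. The groups did not overlap, and the gap between the lowest obese and the highest control value was slightly wider than the gap between replicates of either group. The log2 difference was 0.35 ± 0.14 (SE), a fold of 1.27 (limma, adjusted p = 0.581), and it lay between 0.27 and 0.43 whichever array was left out.

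Perilipin 4, which coats small new droplets in white adipocytes, differed more. Plin4 (1372856_at) had signals of 1407 and 1901 on obese replicates 1 and 2, against 1100 and 1031 on control replicates 1 and 2. The control arrays lay close together and the obese arrays well apart, with obese replicate 2 the highest. Its log2 difference was 0.62 ± 0.18, a fold of 1.54 (limma, adjusted p = 0.512). It exceeded the difference of 98.2% of all tested probe sets. Without obese replicate 2 it was 0.40.

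Perilipin 2 went the other way. PLIN2 coats droplets in most cell types, among them macrophages filled with lipid, and is replaced by PLIN1 as adipocytes mature. Plin2 (1390383_at) had signals of 481.2 and 850.8 on obese replicates 1 and 2, against 768.8 and 1540 on control replicates 1 and 2. The groups overlapped, since obese replicate 2 lay above control replicate 1. The log2 difference was -0.77 ± 0.40, a fold of 0.588 (limma, adjusted p = 0.671), with a 95% confidence interval from -1.75 to 0.21. A second probe set (1382680_at) had 413.8 and 555.6 on the obese arrays, against 495.6 and 799.6 on the control arrays, and gave -0.39 ± 0.26. Both probe sets put the 4 arrays in the same order. The value rested on single arrays: it was -0.26 without control replicate 2, -1.27 without control replicate 1, -0.35 without obese replicate 1 and -1.18 without obese replicate 2.

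Macrophage markers differed between the groups in the same direction as Plin2. The 11 tested of 15 listed markers summed to 6494 and 6361 on obese replicates 1 and 2, against 9347 and 12250 on control replicates 1 and 2. All 11 had a log2 difference below 0, with a median of -0.51. Over all tested probe sets 7438 of 12929 were below 0, with a median of -0.04. Cd68, the lysosomal glycoprotein of macrophages, had 313.7 and 376.6 on the obese arrays, against 522.2 and 906.6 on the control arrays. Gpnmb, a glycoprotein of lipid-laden macrophages, had 440.2 and 769.5 on the obese arrays, against 1743 and 2628 on the control arrays. Control replicate 2 was the highest array for Plin2, Cd68 and Gpnmb alike. Between the obese arrays, Plin2 was 0.82 higher in log2 signal on obese replicate 2. There 5 of the 11 markers, Cd68 and Gpnmb among them, were also higher. The rest were lower, and the sum of the 11 markers was slightly lower. The part of macrophages in the Plin2 signal was not tested, and in a tissue sample fewer cells of a type and less RNA per cell cannot be told apart.

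The balance of the adipocyte coat to the general one was taken within each array, as the log2 signal of Plin1 minus that of Plin2. Because both signals come from the same array, the difference between groups does not depend on how arrays were scaled to each other, while the level of the balance has no meaning of its own. It was -0.45 and -1.12 on obese replicates 1 and 2, against -1.32 and -2.48 on control replicates 1 and 2. Both obese values lay above both control values, by 1.12 on average (exact permutation test, two-sided, p = 0.333, the smallest that 2 against 2 arrays allow). Plin1 minus another probe set was apart in the same way for 67.2% of all other tested probe sets, so the separation is not particular to Plin2. Plin2 minus another probe set was lower on both obese arrays for 25.6% of all other tested probe sets. Without control replicate 2 the average of the balance was 0.53.

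CIDEA sits at the contact between droplets and is known as a marker of brown fat. Cidea (1389179_at) had signals of 663.8 and 1031 on obese replicates 1 and 2, against 513.9 and 560.2 on control replicates 1 and 2. Obese replicate 2 stood far above the other 3 arrays, and obese replicate 1 was closer to the control arrays than to it. The log2 difference was 0.62 ± 0.22, a fold of 1.54 (limma, adjusted p = 0.560), and it was 0.31 without obese replicate 2 and 0.94 without obese replicate 1. The listed genes of brown fat gave mixed levels. Ucp1, the uncoupling protein of brown fat mitochondria, had 25.8 and 33.9 on the obese arrays, against 44.0 and 31.5 on the control arrays, next to a floor of 20.8 below which signals were not ranked. Cox8b, Dio2 and Ppargc1a lay under that floor on every array. Cpt1b, the muscle-type carnitine palmitoyltransferase, had 92.6 and 105.3 on the obese arrays, against 82.4 and 81.0 on the control arrays, and Mpzl2 lay between 103.7 and 191.8 with overlapping groups. Among the 5 tested brown fat genes the largest difference belonged to Fabp3, the muscle-type fatty acid binding protein, with 87.7 and 293.9 on the obese arrays, against 81.5 and 116.4 on the control arrays, and its groups overlapped.

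G0s2, the inhibitor of ATGL, had the largest difference of the 8 genes. Its probe set (1388395_at) had signals of 857.8 and 1094 on obese replicates 1 and 2, against 628.2 and 568.8 on control replicates 1 and 2. The groups were clearly apart, and the step between them was about as large as the step between the obese arrays. The log2 difference was 0.70 ± 0.16, a fold of 1.62 (limma, adjusted p = 0.460), with a 95% confidence interval from 0.30 to 1.10. It exceeded the difference of 98.7% of all tested probe sets and lay between 0.52 and 0.87 whichever array was left out.

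The lipases at the first steps showed no such difference. Pnpla2 (1371697_at), which codes for ATGL, had signals of 1745 and 2132 on obese replicates 1 and 2, against 1907 and 1748 on control replicates 1 and 2. Lipe (1387132_at) had 1720 and 1902 on the obese arrays, against 1850 and 1453 on the control arrays. In both genes the highest value was obese replicate 2 and the groups overlapped. The log2 difference was 0.08 ± 0.16 for Pnpla2 (limma, adjusted p = 0.916), with a 95% confidence interval from -0.32 to 0.48. For Lipe it was 0.14 ± 0.17 (limma, adjusted p = 0.867), with an interval from -0.28 to 0.56. The sign was not stable in either gene: Pnpla2 gave -0.065 without obese replicate 2, and Lipe gave -0.033 without control replicate 2.

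The inhibitor was also set against its target on the same array. The log2 signal of G0s2 minus that of Pnpla2 was -1.02 and -0.96 on obese replicates 1 and 2, against -1.60 and -1.62 on control replicates 1 and 2. Replicates lay close together, with an SD of 0.04 in obese and 0.01 in control tissue (n = 2 each), and the groups were 0.62 apart (exact permutation test, two-sided, p = 0.333, the smallest possible). G0s2 minus another probe set was apart in the same way for 89.8% of all other tested probe sets, so the separation is not particular to Pnpla2. This balance was 0.56 with quantile normalization and 0.65 with cyclic loess.

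MGLL completes lipolysis and also breaks down the endocannabinoid 2-arachidonoylglycerol. The brightest of the 4 probe sets of Mgll (1370831_at) had signals of 1319 and 1903 on obese replicates 1 and 2, against 1129 and 1258 on control replicates 1 and 2. Its log2 difference was 0.41 ± 0.20, a fold of 1.33 (limma, adjusted p = 0.659). The groups did not overlap, but obese replicate 1 lay barely above control replicate 2, and the difference was 0.15 without obese replicate 2 and 0.67 without obese replicate 1. A second probe set (1388644_at) had 1150 and 2162 on the obese arrays, against 1090 and 979.6 on the control arrays, and gave 0.61 ± 0.30. Another (1375247_at) had 503.8 and 1144 on the obese arrays, against 553.1 and 533.2 on the control arrays, so that obese replicate 1 lay below both control arrays. In these 3 probe sets the excess came mainly from obese replicate 2. The fourth (1375355_at), near the floor with 37.9 and 46.6 on the obese arrays against 56.6 and 43.3 on the control arrays, gave -0.24 ± 0.23, so the probe sets disagreed in sign.

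**Figure D2:**
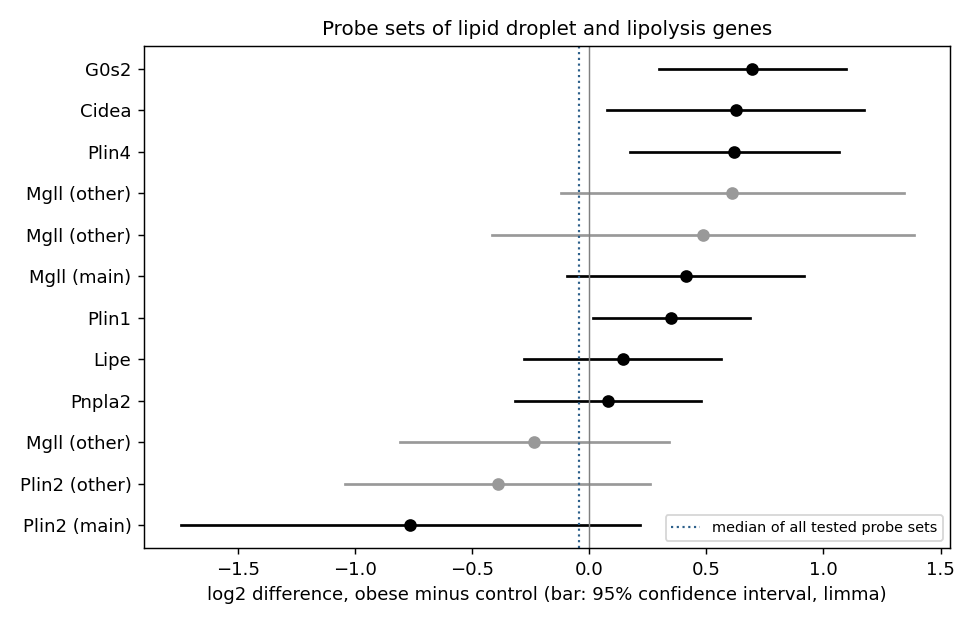
Log2 difference, obese minus control, of the 12 probe sets of the 8 genes (points) with 95% confidence intervals from limma (bars), main probe sets in black and others in grey. The intervals of G0s2, Plin4, Cidea and Plin1 lie above 0, those of Lipe and Pnpla2 span 0 near the dotted median of all tested probe sets, -0.04, and Plin2 has the widest interval, from -1.75 to 0.21.

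The genes were also compared with each other within arrays, over all 28 pairs of the 8. In 21 pairs the balance on both obese arrays lay on the same side of both control arrays, 21 of 28, where this held for 39.3% of all pairs of tested probe sets. G0s2 was the higher partner in 6 of its 7 pairs, all but that with Cidea. For Plin4 this was so in 5 of 7 pairs, for Cidea in 4, for Plin1 in 3 and for Mgll in 2. Against all other tested probe sets, the share in which the gene was the higher partner was 89.8% for G0s2, 84.2% for Plin4, 76.1% for Cidea, 67.2% for Plin1 and 55.2% for Mgll, so none of these counts exceeds that background. Plin2 was the lower partner in 6 of its 7 pairs, all but that with Lipe, where Plin2 minus another probe set was lower on both obese arrays for 25.6% of all other tested probe sets. Pnpla2 was the lower partner in 5 of its 7 pairs, against 8.85% of all other tested probe sets, and Lipe in 4, against 4.78%. The higher partners of Lipe were Plin1, Plin4, Cidea and G0s2, and Pnpla2 had Mgll besides these 4. All of these partners were already counted as higher on both obese arrays. The pair counts, 21 of 28 included, therefore largely restate those differences and are no further result about the lipases. Lipe and Pnpla2 themselves differed from each other by 0.06, with overlapping groups.

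All 8 genes had a higher signal on obese replicate 2 than on obese replicate 1, as did 42.2% of all tested probe sets. The median step was 0.39 on the log2 scale over the 8 genes and -0.05 over all tested probe sets. For Cidea the step was 0.64, for Mgll 0.53, for Plin4 0.43 and for G0s2 0.35, while for Lipe and Plin1 it was 0.15 each. The 6 adipocyte markers were all higher on obese replicate 2 as well, by a median of 0.27, and all 4 mesothelium and all 4 smooth muscle markers were lower there, by medians of -1.90 and -1.33. Against the control mean, the 8 genes had a median of 0.21 on obese replicate 1 and 0.55 on obese replicate 2. The part of the sample's cell makeup in this step was not tested. Obese replicate 1 by itself lay above the control arrays for 5 of the 8 genes, where it did so for 32.1% of all tested probe sets.

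**Figure D3:**
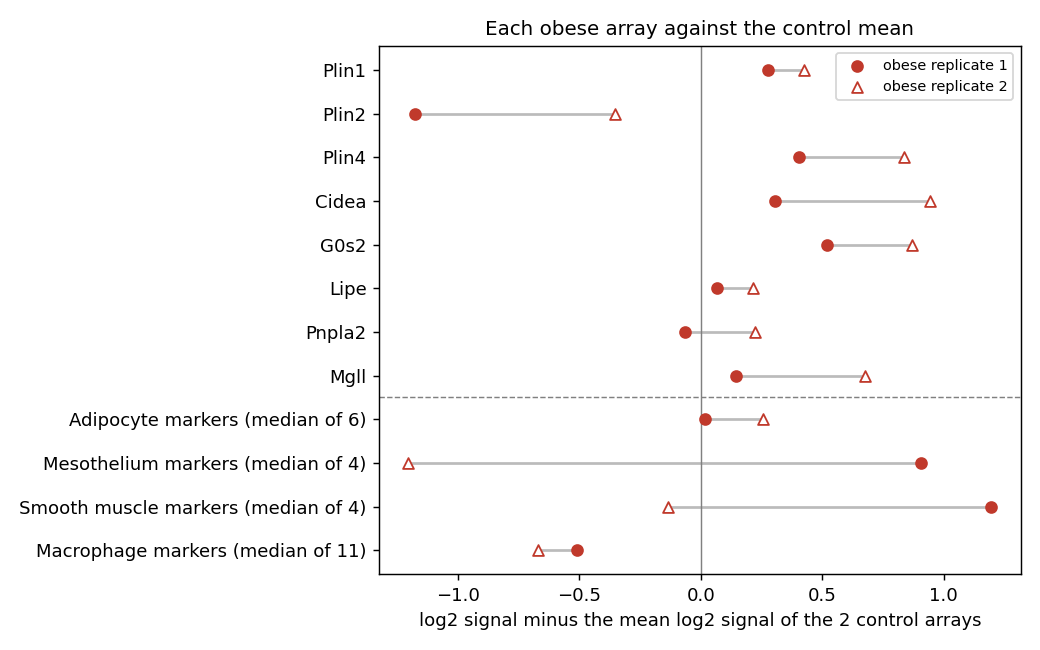
Log2 signal of each obese array minus the mean log2 signal of the 2 control arrays, for the 8 genes (above the dashed line) and as medians of marker lists (below it), with filled circles for obese replicate 1 and open triangles for obese replicate 2. Every gene lies further right on obese replicate 2, while the mesothelium median runs the other way, with 0.91 on replicate 1 and -1.20 on replicate 2.

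Other proteins of the droplet did not follow the coat genes as a group. Of 20 listed genes 15 were tested, 7 with a difference above 0 and 8 below, and their median was -0.02. Over all tested probe sets 5491 of 12929 had a difference above 0. The obese arrays were both above the control arrays for 3 of the 15 genes and both below for 1, against 15.6% and 24.4% of all tested probe sets. Hilpda, a hypoxia-induced droplet protein that also inhibits ATGL, had the largest difference. Its signals were 425.4 and 389.3 on obese replicates 1 and 2, against 320.7 and 246.3 on control replicates 1 and 2, a log2 difference of 0.53 ± 0.17 (limma, adjusted p = 0.522). Hilpda and G0s2, both inhibitors of ATGL, were each above the control arrays on both obese arrays. Each had the largest difference of its own list, and a link between them was not tested. Plin3, the perilipin that moves between cytosol and droplet, differed by -0.17 ± 0.17 and its groups overlapped, and Hsd17b13, near the floor, gave -0.19. Cidec and Plin5 were not analysed here, as they had no probe set of 1 symbol.

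Of 24 genes that control lipolysis, 19 were tested, 14 with a difference above 0 and 5 below, with a median of 0.10. On both obese arrays 5 of the 19 genes exceeded both control arrays, and 3 were below both, against 15.6% and 24.4% of all tested probe sets. Adrb3, the beta-3 adrenoceptor of rodent fat, had signals of 601.4 and 649.3 on the obese arrays, against 471.6 and 719.7 on the control arrays, which overlapped. Adra2a, the alpha-2A adrenoceptor that lowers cAMP, had 22.4 and 18.6 on the obese arrays, against 31.7 and 32.0 on the control arrays. Adrb1, the beta-1 adrenoceptor, had 47.2 and 37.4 on the obese arrays, against 22.0 and 6.7 on the control arrays. For both receptors 1 array lay under the floor of 20.8, so the size of their differences depends on the floor. Aqp7, the channel through which glycerol leaves the adipocyte, was picked after its values were seen: it had 1646 and 2526 on the obese arrays, against 1359 and 1367 on the control arrays, a log2 difference of 0.58 ± 0.22 (limma, adjusted p = 0.581).

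Lipases other than the listed ones divided evenly, with 6 of 12 tested genes above 0, 6 below and a median of -0.02. With no overlap between groups, 2 of the 12 were higher in obese tissue and 3 lower, close to the 15.6% and 24.4% of all tested probe sets. Pnpla3, a relative of ATGL that is induced by lipogenic feeding, had 56.6 and 95.7 on the obese arrays, against 35.7 and 32.1 on the control arrays, a log2 difference of 1.12 ± 0.29 (limma, adjusted p = 0.467). Lipa, the acid lipase of lysosomes, had 291.7 and 229.0 on the obese arrays, against 457.9 and 651.5 on the control arrays, a log2 difference of -1.08 ± 0.22 (limma, adjusted p = 0.402). Control replicate 2 had the highest Lipa signal, as it had for Plin2, Cd68 and Gpnmb.

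Most genes that build triglyceride had a difference above 0. Of 17 listed genes 12 were tested, 11 with a difference above 0 and 1 below, with a median of 0.16, against 5491 of 12929 above 0 over all tested probe sets. On both obese arrays 6 of the 12 exceeded both control arrays, against 15.6% of all tested probe sets, and 0 were below both, against 24.4%. Dgat2, which adds the last fatty acid, had 1356 and 2215 on the obese arrays, against 1274 and 976.8 on the control arrays, a log2 difference of 0.64 ± 0.27 (limma, adjusted p = 0.615). Agpat1, an enzyme of the step that makes phosphatidic acid, was the 1 gene below 0, at -0.06. Dgat2 was highest on obese replicate 2, as was each measured coat and lipolysis gene except Plin2.

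**Figure D4:**
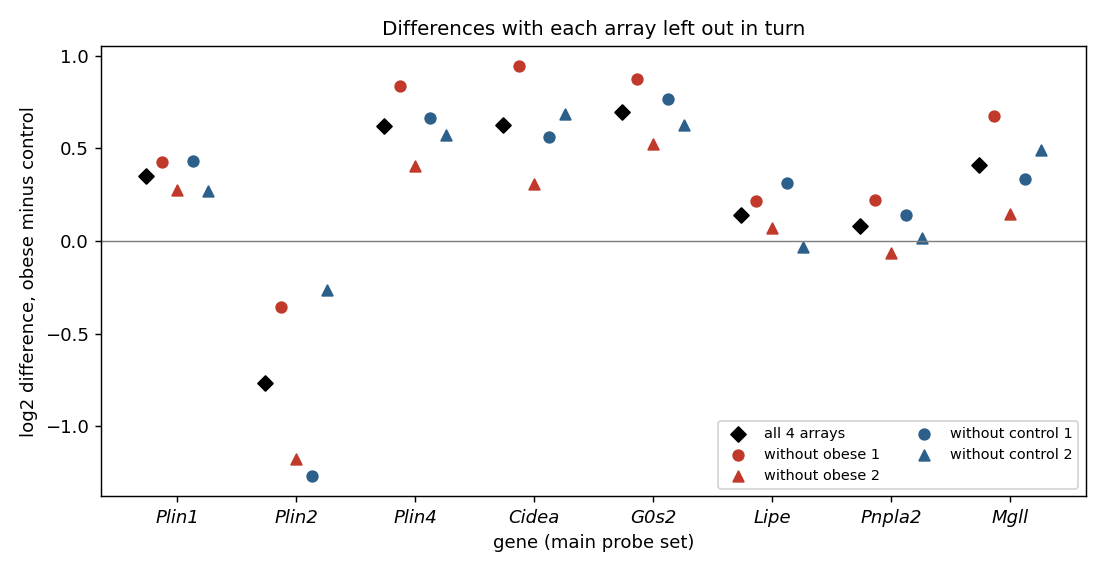
Log2 difference, obese minus control, of the main probe set of each gene with all 4 arrays (diamonds) and with each array left out in turn (red: an obese array left out, blue: a control array left out, circle: replicate 1, triangle: replicate 2). Plin1, Plin4, Cidea, G0s2 and Mgll stay above 0 and Plin2 stays below it with each array left out, while Pnpla2 reaches -0.065 and Lipe -0.033.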

How the data were processed

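The authors deposited a table of 15923 rows that gives an intensity (linear scale) for each array. Software and normalization were not given in the sources used here. The 4 arrays share a 2% trimmed mean of 150.03, so the values appear scaled already and were used as deposited. Of the rows, 57 control probe sets were left out. Signals under 20.8 (the 20th percentile, called the floor) were set to it before log2 was taken, and probe sets with at least 2 arrays above it were tested. All 12 probe sets of the genes described passed. Limma 3.58.1 in R 4.3.3 (lmFit, eBayes with a trend) compared obese with control samples, two-sided, with Benjamini-Hochberg adjustment over 12929 probe sets. Standard errors of this fit have 5.83 degrees of freedom. The code was tested on simulated data. Symbols came from the platform annotation and were looked up in RefSeq (12748 of 12783 matched). Besides the genes described, text names the largest and smallest difference of each pathway list, a few fixed genes, and markers where they bear on a result. Members and lists were chosen with earlier results of these data known. Within-array balances over all pairs, and centring on adipocyte markers, were added after seeing the data. The planned balance of Abhd5 was not run. Other scalings, floors, filters, variance models, a replicate block and leaving out arrays were tried.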

Additional observations from a re-analysis of the deposited data

How the results depend on the processing

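Across all alternatives, the 5 genes G0s2, Plin4, Cidea, Plin1 and Mgll kept a difference above 0 and Plin2 one below 0. The number of genes higher on both obese arrays was 5 under the other scalings, floors and filters, 4 with all probe sets of a gene averaged, and 5 to 7 with an array left out. The number lower on the obese arrays, 0 with all arrays, was 0 to 2 with an array left out. With an array left out, 27% to 32.1% of all tested probe sets were higher on the obese arrays. In the same settings 36.1% to 46% of them were lower. An unadjusted p under 0.05, reached by 4 genes, was reached by 2 without the filter on dim probe sets. In that setting 1159 of 15866 probe sets reached it. The number of genes also changed when an array was left out, as did the number over all tested probe sets. No gene passed an adjusted p of 0.05 in any alternative planned. The balance of G0s2 and Pnpla2, 0.62, was 0.56 with quantile normalization and 0.65 with cyclic loess. Over all tested probe sets, 15.6% were higher and 24.4% lower on both obese arrays, while median centring gave 20.4% higher and 18.8% lower. Centring each array on 6 adipocyte markers, chosen after seeing the data, moved the median of all probe sets to -0.28. It left 3 genes higher and 2 lower, beside 2.91% and 35.6% of all tested probe sets, with a median of 0.14. Pnpla2 was at -0.16, Lipe at -0.10 and Plin2 at -1.01 (limma, adjusted p = 0.0290). In this setting 95 of 12929 probe sets passed an adjusted p of 0.05, against 0 in the main fit. The adjusted p of Plin2 can therefore not be read beside those of the main fit. Lep, which itself differed by 0.89, is among the 6 adipocyte markers. Without Lep, 5 genes were higher and 1 lower, beside 8.05% and 30.9% of all tested probe sets. Pnpla2 was then at -0.030, and Plin2 missed the threshold. Leaving out an array gave -0.065 (without obese replicate 2) to 0.22 for Pnpla2 and -0.033 (without control replicate 2) to 0.32 for Lipe. The cause of these changes was not tested. The replicate numbers are shared by both groups, but deviations of same-numbered arrays correlated with r = 0.05, so a number is not taken to pair samples. With the replicate block, 5 genes had an unadjusted p under 0.05 and 0 an adjusted one, beside 1103 and 0 of 12929 probe sets. The 5 were G0s2, Plin4, Cidea, Mgll and Plin2, and Plin1 was no longer among them. Plin2, lower in obese tissue, then had the smallest p of the measured genes (limma, unadjusted p = 0.00166, adjusted p = 0.371). With 2 arrays a group and signals near the floor for 1 Mgll probe set and for the adrenoceptors Adrb1 and Adra2a, small differences could not be resolved.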
